A study of Mus musculus with 3 samples.

Results

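Rgs5, Ttr, Unc13c, Scube2 and Fut9 are 5 genes better known from other tissues, and each was detected in the cells that line the mouse bladder. They were 5 of 31053 genes in single-cell libraries of dissociated bladder. The 5 genes were chosen by their measured values in the same 3 matrices, on the share of cells with a transcript, the joint detection, the opposition to the basal keratin Krt15 and the differences between libraries. All of those values are therefore given as descriptions, with no test. Urothelial cells were defined as barcodes with at least 10000 unique molecular identifiers (UMIs, counts of single captured transcripts), at most 20% mitochondrial UMIs, and at least 0.2% of UMIs from Upk1a, Upk1b, Upk2 and Upk3a, which encode the uroplakins of the luminal surface. This gave 12728 of 25784 barcodes.

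The groups were Lpar6 knockout mice, Cab39l knockout mice and wild-type mice, with 1 library each. The lipid mediator lysophosphatidic acid is bound by the receptor that Lpar6 encodes, while Cab39l codes for a scaffold that holds the kinase Stk11. Each library was 1 pool of trypsin-released cells from 15 mice. Single animals are not distinguished, and a difference between groups cannot be told apart from a difference between preparations. Strain, sex and age, and which part of each gene was deleted, are not given in the sources used here. Urothelial cells numbered 4670 in the Lpar6 knockout, 5171 in the Cab39l knockout and 2887 in wild type, with median depths of 27339.5, 30904 and 23652 UMIs. Median mitochondrial shares were 6.25%, 6.12% and 8.68% in the same order. Lpar6 had 0 UMIs in Lpar6 knockout urothelial cells, against 1902 in Cab39l knockout and 1039 in wild-type cells. Cab39l stood at 31.6 CPM (counts scaled to a common total, the same for every library) in the Cab39l knockout, against 94.0 in the Lpar6 knockout and 112 in wild type, and a 3' tag outside a deleted part would not show the deletion. All 13 urothelial markers examined were detected in every library. Pairs of libraries shared between 2 and 8 urothelial barcode sequences.

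The urothelium is a layered epithelium in which basal cells that carry keratins such as Krt5 and Krt15 give rise to intermediate cells and, at the lumen, to umbrella cells rich in uroplakins and Krt20. Rgs5 encodes a GTPase-activating protein that shortens signalling from G-protein-coupled receptors and is best known as a pericyte marker. Ttr encodes transthyretin, a carrier of thyroid hormone and of the retinol-binding protein that is made chiefly in liver and choroid plexus. Unc13c encodes a Munc13 protein, a family that primes vesicles for release and is known from neurons. Scube2 encodes a secreted protein that helps lipid-bearing Hedgehog ligands leave the cell, and Fut9 encodes a fucosyltransferase that makes the Lewis x carbohydrate.

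The members lie on separate chromosomes, and upstream sequences are shown so that the promoters of genes detected in the same cells can be read side by side. In the GRCm38 (mm10) build, Rgs5 spans chr1:169655501-169695813 on the plus strand, and Unc13c chr9:73479422-73968966, Scube2 chr7:109798676-109865679 and Fut9 chr4:25609332-25800244 on the minus strand. No exon of any member overlapped an exon of another annotated gene. RefSeq promoter sequences (GRCm38.p6) matched 3 of the 5 members, and the 250 bases before each start are printed 5′ to 3′ on the gene's strand. They cover chr1:169655251-169655500 for Rgs5, chr9:73969038-73969287 for Unc13c and chr7:109865680-109865929 for Scube2. Capitals mark matches on either strand. The letters searched were GATAA for the GATA core, TGTTTAC for a forkhead site, GGGCGG for the GC box, CCAAT for the CCAAT box and TATAAA for the TATA box.
Rgs5: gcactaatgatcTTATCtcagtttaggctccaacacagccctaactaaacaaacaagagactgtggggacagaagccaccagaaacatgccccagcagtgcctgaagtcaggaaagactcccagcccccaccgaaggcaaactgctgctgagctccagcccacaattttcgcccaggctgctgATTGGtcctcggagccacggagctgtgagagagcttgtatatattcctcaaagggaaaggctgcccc
Unc13c: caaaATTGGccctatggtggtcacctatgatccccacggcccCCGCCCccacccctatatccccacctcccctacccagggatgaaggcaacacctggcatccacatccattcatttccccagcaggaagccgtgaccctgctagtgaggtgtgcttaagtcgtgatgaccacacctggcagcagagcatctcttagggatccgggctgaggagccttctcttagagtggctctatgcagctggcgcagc
Scube2: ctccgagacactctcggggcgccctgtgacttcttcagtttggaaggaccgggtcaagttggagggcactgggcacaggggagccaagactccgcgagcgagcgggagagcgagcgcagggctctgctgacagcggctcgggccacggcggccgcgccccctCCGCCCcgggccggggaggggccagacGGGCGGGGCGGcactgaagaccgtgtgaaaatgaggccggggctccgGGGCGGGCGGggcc
The Scube2 window had 5 matches to the GC box, in which 2 pairs of matches overlapped, and a G+C content of 73.6%, against a median of 52.4% over 32851 promoters. Rgs5 had 1 match to the GATA core and 1 to the CCAAT box, and Unc13c had 1 match to the GC box and 1 to the CCAAT box. Matches to these letters were found in 22.6% (GATA core), 32.7% (GC box) and 33.8% (CCAAT box) of all promoter windows of that length. None of the 3 windows held the forkhead letters or the TATA box letters, which were in 3.17% and 12.4% of all windows. No motif was present in all 3.

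Rgs5 was found in between 50.5% and 56.4% of urothelial cells of the 3 libraries. To compare shares across depths, 10000 UMIs were drawn at random from every cell, and a cell was counted when it kept at least 1 UMI of the gene. Rgs5 was then found in 54.0% of Lpar6 knockout cells (exact 95% binomial interval 52.6 to 55.5%), 50.5% of Cab39l knockout cells (49.1 to 51.9%) and 56.4% of wild-type cells (54.5 to 58.2%). Intervals here and below cover counting error only. Without thinning the shares were 74.6%, 69.8% and 70.5% in the same order. The level showed a wider gap than the share. Summed over cells, Rgs5 stood at 121 CPM in Lpar6 knockout cells and 123 CPM in Cab39l knockout cells, against 187 CPM in wild type. Cells with Rgs5 held 2.07, 2.16 and 3.12 thinned UMIs on average in the Lpar6 knockout, Cab39l knockout and wild type. Cells with at least 10 thinned Rgs5 UMIs numbered 6 of 4670, 9 of 5171 and 50 of 2887 in the same order.

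Ttr and Unc13c had their highest shares in the Lpar6 knockout and their lowest in the Cab39l knockout. Ttr was found in 19.6% (18.5 to 20.8%) of Lpar6 knockout cells, 9.86% (9.06 to 10.7%) of Cab39l knockout cells and 12.6% (11.4 to 13.9%) of wild-type cells. Unc13c was found in 16.8% (15.7 to 17.9%), 4.68% (4.12 to 5.29%) and 9.94% (8.87 to 11.1%) in the same order. Unthinned, Ttr was in 35.8%, 21.4% and 23.8% of cells and Unc13c in 32.8%, 11.5% and 18.05%, so the order was unchanged. Ttr transcripts, from a gene at chr18:20665280-20674321 on the plus strand (GRCm38), were concentrated in few cells. The 1% of cells with the most Ttr held 21.8%, 24.1% and 20.5% of all Ttr UMIs in the Lpar6 knockout, Cab39l knockout and wild type, and 1 Lpar6 knockout cell held 190 of that library's 4404 Ttr UMIs. The 1% of cells with the most Rgs5 held 6.99%, 7.84% and 7.64% of its UMIs, and the 1% with the most Unc13c 9.50%, 20.7% and 16.1%. For Scube2 and Fut9, taken likewise, it was 5.61 to 7.48% in every library. Rgs5 had more UMIs than Ttr or Unc13c, so these shares are not compared at a like level.

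Scube2 and Fut9 each set a different library apart. Scube2 was found in 31.6% (30.3 to 33.0%) of Lpar6 knockout cells, 22.5% (21.4 to 23.7%) of Cab39l knockout cells and 29.3% (27.6 to 31.0%) of wild-type cells, so the Cab39l knockout was lowest and the intervals of the other libraries overlapped. Fut9 was found in 21.2% (20.1 to 22.4%), 21.6% (20.5 to 22.7%) and 30.0% (28.3 to 31.7%) in the same order, so wild type was highest and the intervals of the knockouts overlapped. Unthinned shares were 59.7%, 48.8% and 52.3% for Scube2 and 44.97%, 46.2% and 50.7% for Fut9.

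**Figure D1:**
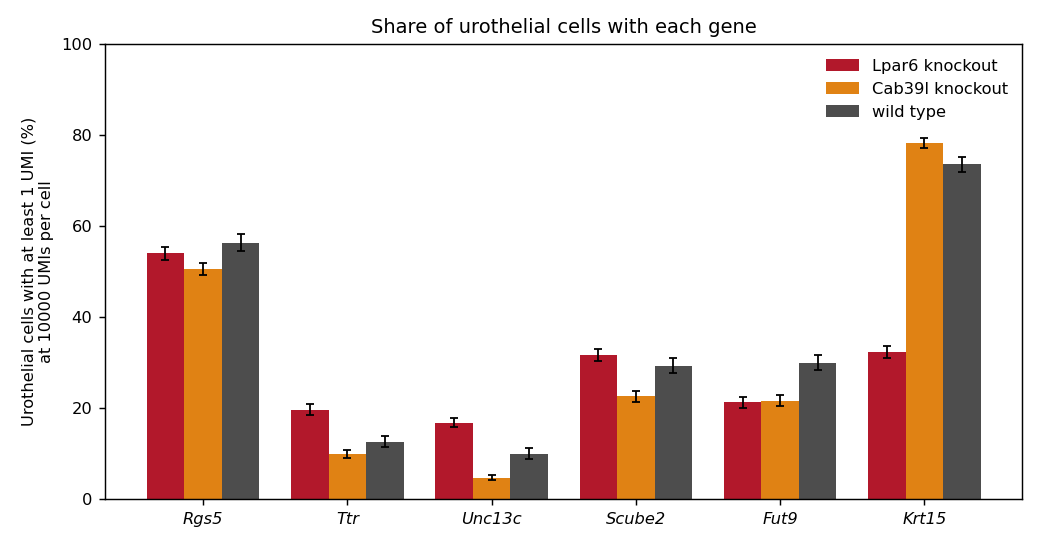
Share of urothelial cells with at least 1 UMI of each member and of Krt15 after thinning to 10000 UMIs, for the Lpar6 knockout, Cab39l knockout and wild-type libraries, with exact 95% binomial intervals as error bars. Ttr and Unc13c are highest in the Lpar6 knockout (19.6% and 16.8%), Fut9 is highest in wild type (30.0%), and Krt15 is lowest in the Lpar6 knockout (32.4%).

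The shares moved with mitochondrial content, most widely in wild type. Between 10 and 20% mitochondrial UMIs were found in 9.66% of Lpar6 knockout and 13.2% of Cab39l knockout cells, against 38.3% of wild-type cells. In wild type, Rgs5 was found in 27.7% of cells under 5%, 47.9% of cells from 5 to 10% and 72.7% of cells from 10 to 20%. Fut9 followed the same order in wild type, with 8.39%, 23.1% and 43.0%. Within the range from 5 to 10%, which holds most cells of every library, Rgs5 was in 53.1% of Lpar6 knockout, 49.8% of Cab39l knockout and 47.9% of wild-type cells. Wild type thus read lowest there, but its interval (45.5 to 50.4%) overlapped that of the Cab39l knockout (48.2 to 51.4%). Over all cells wild type read highest, with an interval that overlapped that of the Lpar6 knockout. In cells from 5 to 10%, Fut9 was in 20.3%, 21.1% and 23.1%, with overlapping intervals, and Unc13c in 16.1%, 4.64% and 7.38%. The order of the libraries for Ttr within that range was the same as over all cells, at 19.3%, 9.71% and 11.8%. Median mitochondrial shares of cells with and without Rgs5 were 6.32% and 6.18% in the Lpar6 knockout and 6.26% and 6.001% in the Cab39l knockout, a smaller gap than the 9.92% and 7.13% of wild type. The part of mitochondrial content in the differences between libraries was not tested.

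Between libraries, none of the 5 members differed by as much as 2-fold between the Lpar6 knockout and wild type. Levels were compared as log2 ratios of (CPM + 1), and ratios of CPM carry exact 95% Poisson intervals. At that threshold 0 of 5 members differed, against 2.65% of the 12892 genes with at least 50 UMIs, whose median log2 ratio was -0.30. Ttr stood at 34.6 CPM in the Lpar6 knockout and 20.9 CPM in wild type, a log2 ratio of 0.70 (CPM ratio 1.66, 1.56 to 1.75). Unc13c stood at 22.1 and 14.6 CPM, a log2 ratio of 0.56. Scube2 was level at 38.9 and 38.7 CPM, Rgs5 had a log2 ratio of -0.62, and Fut9, at 26.9 and 44.9 CPM, one of -0.72. The count was 1 with TMM scaling (Ttr, 1.08), 1 in cells with at most 10% mitochondrial UMIs (Unc13c, 1.04) and 2 in cells without Krt15 (Rgs5 and Fut9, both lower). As the members were chosen with these contrasts in view, nothing is read from the count.

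Against wild type, the Cab39l knockout had lower CPM for all 5 members, as it did for most genes with at least 50 UMIs. Unc13c stood at 5.92 CPM in the Cab39l knockout and 14.6 CPM in wild type, a log2 ratio of -1.17 (CPM ratio 0.405, 0.371 to 0.443). It was the 1 member past 2-fold, against 3.06% of 13020 genes, whose median log2 ratio was -0.28. The other log2 ratios were -0.71 for Fut9, -0.61 for Rgs5, -0.56 for Ttr (13.9 against 20.9 CPM) and -0.48 for Scube2 (27.4 against 38.7 CPM). Of the 13020 genes, 33.1% had a lower log2 ratio than Scube2, 27.3% than Ttr, 23.7% than Rgs5, 16.1% than Fut9 and 0.853% than Unc13c. Nothing is read from all 5 being lower. Among cells with at most 10% mitochondrial UMIs the log2 ratio of Unc13c was -0.74, short of 2-fold.

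Set against each other, the knockouts differed most in Unc13c and Ttr. Unc13c was 3.73-fold (3.46 to 4.02) and Ttr 2.49-fold (2.37 to 2.62) higher in the Lpar6 knockout than in the Cab39l knockout, with log2 ratios of 1.74 and 1.26. These 2 of 5 members passed 2-fold, against 0.701% of 13120 genes, whose median log2 ratio was 0.00. The members were chosen with differences between libraries in view, so nothing is read from this count or from those against wild type. Scube2 had a log2 ratio of 0.49, and Rgs5 and Fut9 were nearly level at -0.02 and -0.01. Both comparisons with wild type share the same wild-type library, so a like direction in both is not counted as a repeat.

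**Figure D2:**
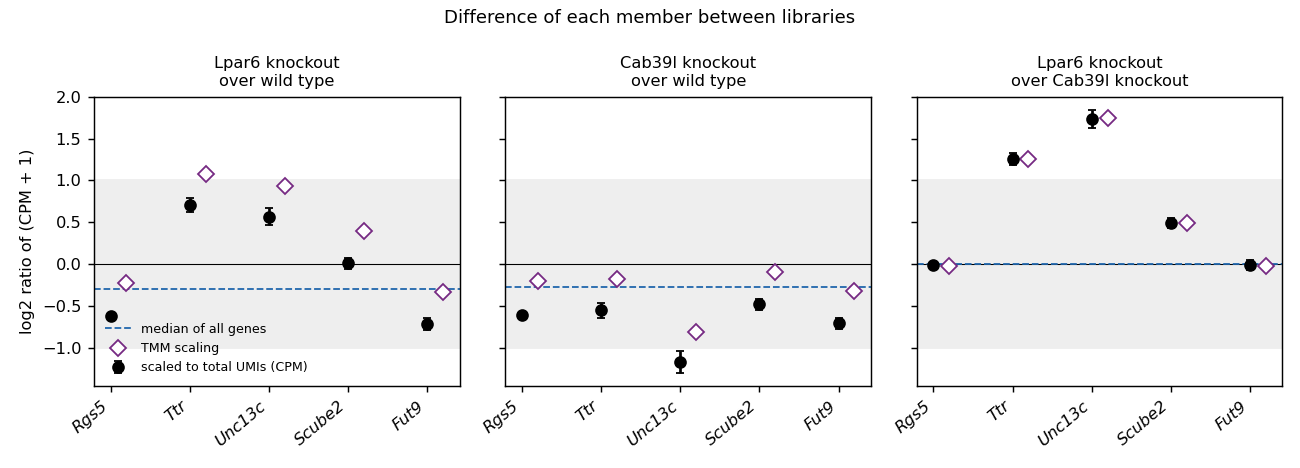
Log2 ratio of (CPM + 1) for each member in 3 pairs of libraries, scaled to total UMIs (black, with 95% counting intervals) or by TMM (open diamonds), with the median of all genes as a dashed line and the range under 2-fold in grey. Scaled to total UMIs, Unc13c and Ttr are more than 2-fold higher only in the Lpar6 knockout over the Cab39l knockout (1.74 and 1.26). With TMM, Ttr in the Lpar6 knockout over wild type is so too (1.08). Unc13c is more than 2-fold lower in the Cab39l knockout over wild type (-1.17) but not with TMM (-0.81).

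Most genes read lower in both knockouts than in wild type, and the shift followed transcript length. Trimmed-mean (TMM) scaling moved log2 ratios of CPM against wild type up by 0.39 (Lpar6 knockout) and 0.40 (Cab39l knockout). Under it, Ttr in the Lpar6 knockout reached 1.08 and Unc13c 0.93, Rgs5 read -0.23 and Fut9 -0.34, and Unc13c in the Cab39l knockout read -0.81. Among the 2576 genes (Lpar6 knockout) and 2602 genes (Cab39l knockout) with the longest transcripts, above 5.09 and 5.083 kb, the median log2 ratio to wild type was -0.64 in Lpar6 knockout cells and -0.69 in Cab39l knockout cells, and among as large a class of the shortest it was 0.07 in each. Ttr, with a longest transcript of 1.186 kb, was in the shortest class, and Unc13c (8.796 kb) and Fut9 (12.134 kb) in the longest. Unc13c in the Lpar6 knockout thus stood at 0.56 among long genes with a median of -0.64. The part of transcript length in the members' differences was not tested.

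Cells with a member had less Krt15 than cells without it, for all 5 members in all 3 libraries. Krt15 itself stood at 208 CPM in the Lpar6 knockout, 1121 CPM in the Cab39l knockout and 1076 CPM in wild type, from a gene at chr11:100131758-100135928 on the minus strand. In the Lpar6 knockout, cells with Rgs5 had 90.2 CPM of Krt15 and cells without it 366 CPM, 4.05-fold lower (3.94 to 4.17). The same values were 641 and 1716 CPM in the Cab39l knockout, 2.68-fold lower, and 558 and 1872 CPM in wild type, 3.35-fold lower. The gap for Unc13c was 5.12-, 2.76- and 3.36-fold in the Lpar6 knockout, Cab39l knockout and wild type. Fut9 cells had 2.14-, 1.71- and 2.82-fold less Krt15, Ttr cells 2.33-, 1.91- and 1.84-fold less, and Scube2 cells 2.11-, 1.70- and 2.26-fold less. Cells with Rgs5 were also deeper than cells without it, with medians of 25923 and 21069 UMIs in wild type.

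Read the other way, the share of cells with a member fell as Krt15 counts rose. Cells were grouped by thinned Krt15 UMIs into 0, 1 to 4, 5 to 19, and 20 or more. From no Krt15 to most, Rgs5 was found in 62.1%, 48.2%, 27.2% and 12.9% of Lpar6 knockout cells and in 76.3%, 66.4%, 46.4% and 22.5% of Cab39l knockout cells. In wild type the shares were 83.2%, 72.1%, 48.7% and 22.3%. Rgs5 was thus lowest in the Lpar6 knockout in every group of Krt15 counts. Unc13c was in 20.6% of 3159 Lpar6 knockout cells without Krt15 and in 0 of 186 with 20 or more, which allows a share of up to 1.61% (3 counts). The same ends for Unc13c were 9.54% and 1.31% in the Cab39l knockout, and 20.7% and 2.31% in wild type. For Fut9 they were 24.3% and 8.60% in the Lpar6 knockout, and 44.1% and 9.52% in wild type. Of the 15 member and library series, 15 were lower in the last group than in the first and 14 fell at each step, all but Scube2 in the Cab39l knockout. The members were chosen with opposition to Krt15 in view, and no share over all genes was taken. Nothing is therefore read from these counts. Before thinning, wild-type cells with no Krt15 had a median of 27675.5 UMIs and those with 20 or more had 19514.

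**Figure D3:**
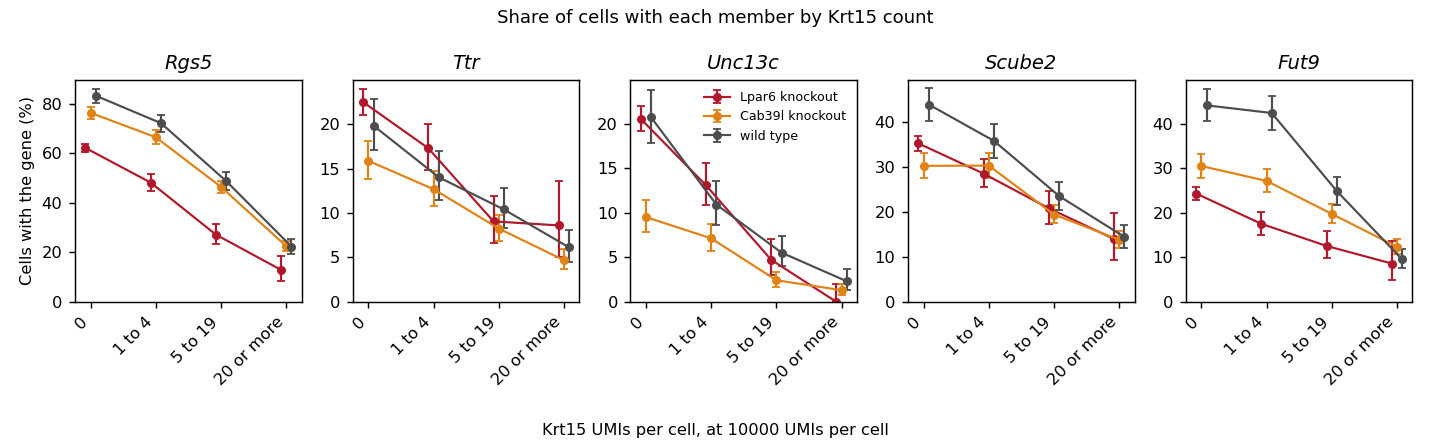
Share of cells with each member by thinned Krt15 UMIs per cell, for the Lpar6 knockout, Cab39l knockout and wild type, with exact 95% binomial intervals. Every line ends below its start, as for Rgs5 in wild type (83.2% at no Krt15, 22.3% at 20 or more).

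The libraries differed in how many cells had no Krt15, and among those cells the order of the libraries changed for Rgs5, Unc13c and Scube2 but not for Ttr and Fut9. Cells without a thinned Krt15 UMI made up 67.6% of the Lpar6 knockout, 21.7% of the Cab39l knockout and 26.4% of wild type. Among them Unc13c was found in 20.6%, 9.54% and 20.7% of cells in the same order, so the Lpar6 knockout and wild type lay within each other's intervals. Scube2 was found in 35.2%, 30.2% and 43.8%, Ttr in 22.5%, 15.9% and 19.8%, and Fut9 in 24.3%, 30.5% and 44.1% of these cells. Summed over these cells, the log2 ratio of Unc13c between the Lpar6 knockout and wild type was -0.14, against 0.56 over all cells, and that of Ttr was 0.20, against 0.70. For Rgs5 and Fut9 the same ratios were -1.19 and -1.16, past 2-fold. Between the Cab39l knockout and wild type the ratio of Unc13c among these cells was -1.21. Between the Lpar6 and the Cab39l knockout the ratios among these cells were 1.07 for Unc13c, 0.72 for Ttr, 0.20 for Scube2, -0.38 for Fut9 and -0.56 for Rgs5, so that Ttr was no longer 2-fold apart. Because Krt15 was 5.18-fold lower in the Lpar6 knockout than in wild type, cells without Krt15 need not be the same kind of cell in the 3 libraries, and the part of Krt15 in the members' differences cannot be told apart from that shift. Weighted to an equal make-up of the Krt15 groups, the share with Unc13c was 11.7%, 5.93% and 11.9% and that with Rgs5 42.3%, 57.5% and 61.8% in the Lpar6 knockout, Cab39l knockout and wild type.

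The members also fell with the sum of basal markers other than Krt15 and rose with the sum of Krt20 and Upk2. Cells of each library were ordered by the summed Krt5, Krt14, Trp63, Itga6, Itgb4, Col17a1, Krt17, Cd44 and Lamb3 and divided into 4 equal parts. In the lowest and the highest of these parts, Rgs5 was in 61.7% and 42.5% of Lpar6 knockout cells, 64.2% and 33.3% of Cab39l knockout cells, and 69.0% and 36.6% of wild-type cells. All 15 member and library series were lower in the part with most basal markers, 13 of them at each step. Along the summed Krt20 and Upk2, all 15 were higher in the top part than in the bottom one, 13 of them at each step. No share over all genes was taken along either range, so nothing is read from these counts. In the bottom and the top part of the Lpar6 knockout, Rgs5 was in 41.8% and 64.5% of cells, Fut9 in 15.9% and 29.0%, and Unc13c in 12.9% and 20.4%. The same ends in wild type were 27.3% and 84.7% for Rgs5, 13.2% and 49.9% for Fut9, and 3.19% and 19.001% for Unc13c. For each of the 3 genes the ends lay closer together in the Lpar6 knockout than in wild type. Upk2 is one of the genes that chose the cells, so the umbrella range is in part set by the rule. Single markers ran unequally with the members. In the Lpar6 knockout, Cab39l knockout and wild type, Rgs5 had Pearson correlations of 0.12, 0.13 and 0.11 with Krt20. With Upk2 they were 0.20, 0.32 and 0.51. The other members had 0.02 to 0.08 with Krt20 and 0.08 to 0.32 with Upk2. On the basal side, Rgs5 had -0.03, -0.08 and 0.02 with Trp63, against -0.18, -0.26 and -0.33 with Krt5.

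**Figure D4:**
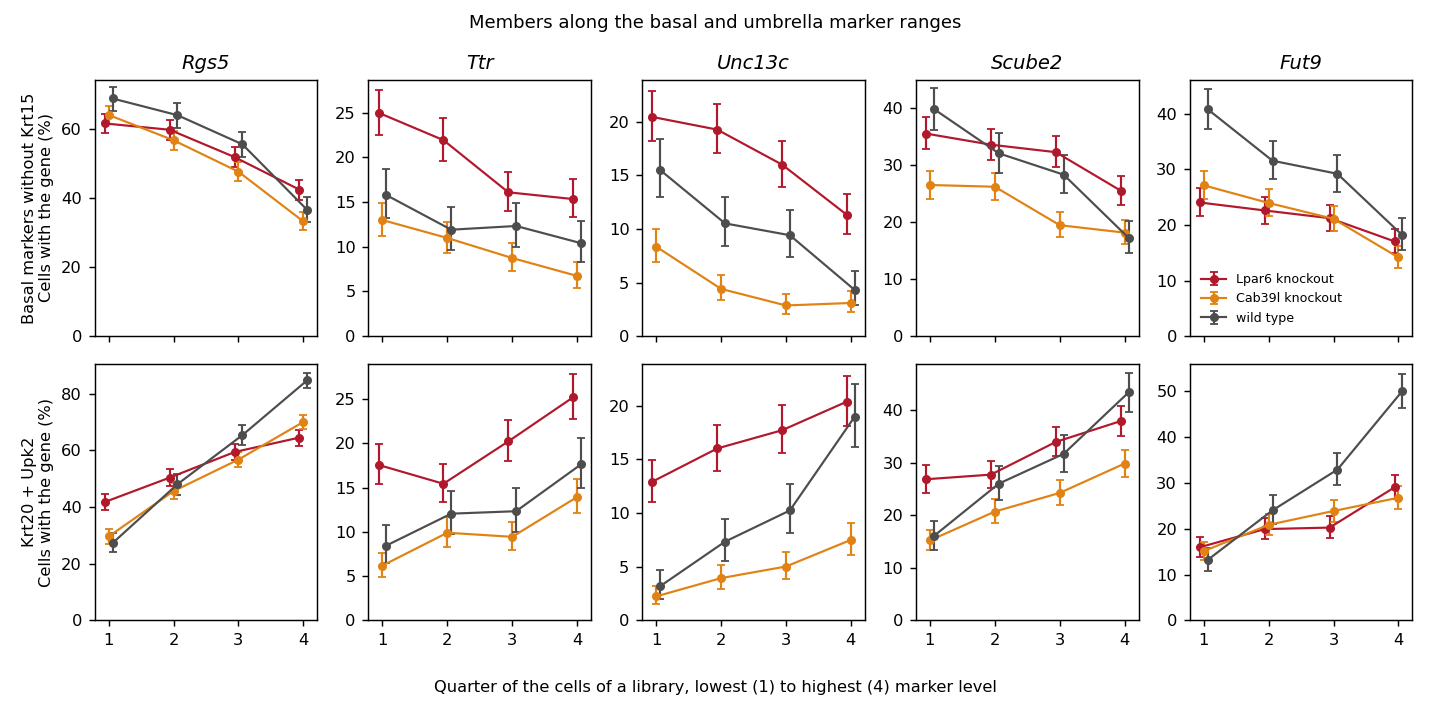
Share of cells with each member in 4 equal parts of the cells of each library, ordered by basal markers without Krt15 (upper panels) or by Krt20 and Upk2 (lower panels), for the Lpar6 knockout, Cab39l knockout and wild type with exact 95% binomial intervals. Shares end lower along the basal range and higher along the umbrella range, as for Rgs5 in wild type, which ends at 36.6% in the upper panel and 84.7% in the lower one.

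Every pair of members occurred in the same cells more often than the product of their shares. The ratio of cells with both to that product was above 1 for 10 of 10 pairs in each library, with medians of 1.195 in the Lpar6 knockout, 1.33 in the Cab39l knockout and 1.35 in wild type. The ratios ran from 1.11 to 1.35, from 1.19 to 1.72 and from 1.16 to 1.76 in the same order. In wild type, Fut9 was found in 52.6% of cells with Unc13c and in 27.5% of cells without it, the pair with the ratio of 1.76. Rgs5 and Unc13c were together in 554 Lpar6 knockout cells, 173 Cab39l knockout cells and 248 wild-type cells, with ratios of 1.31, 1.42 and 1.53. Ttr and Unc13c were together in 207, 41 and 53 cells, with ratios of 1.35, 1.72 and 1.46. Rgs5 and Ttr had ratios of 1.19, 1.33 and 1.16. A gene found in over 50% of cells leaves little room above 1, so ratios are not ranked between genes. Pairs of other genes were not taken, and the members were chosen with joint detection in view. Nothing is read from the count of pairs above 1, here or below.

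At least 3 of the 5 members were found in 776 Lpar6 knockout cells (16.6%), 453 Cab39l knockout cells (8.76%) and 505 wild-type cells (17.5%). The products of the shares give 13.3%, 5.46% and 11.3%. Cells with none made up 22.3%, 31.9% and 27.3%, against products of 16.6%, 25.8% and 17.0%. Krt15 was lower in cells with more members, except that in the Cab39l knockout it averaged 2.20 thinned UMIs in cells with 4 members and 4 in the 6 cells with 5. In the Lpar6 knockout, cells with no member held 6.44 thinned Krt15 UMIs on average, those with 1 member 2.75 and those with 2 members 0.99. In wild type the averages were 24.4 with no member, 12.6 with 1, 6.32 with 2, 2.90 with 3, and 0.09 in the 11 cells with all 5. The median mitochondrial share in cells with no member and with 4 members was 6.08% and 6.36% in the Lpar6 knockout, and 6.69% and 12.1% in wild type.

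**Figure D5:**
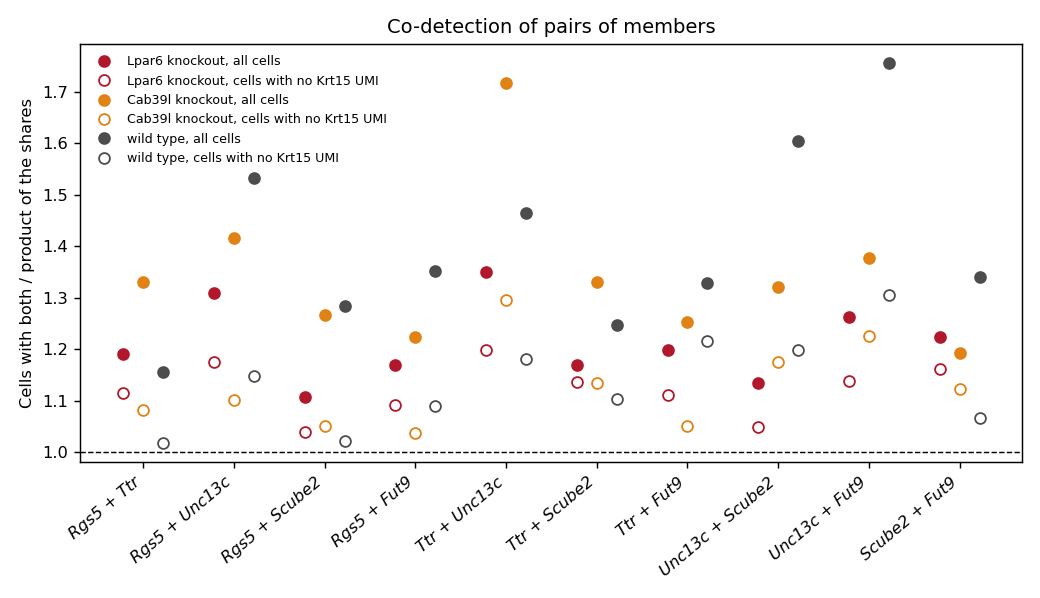
Cells with both members of a pair divided by the product of their shares, for the 10 pairs in the Lpar6 knockout, Cab39l knockout and wild type, over all urothelial cells (filled) and over cells without a thinned Krt15 UMI (open). All points lie above 1 (dashed line), with medians of 1.195, 1.33 and 1.35 over all cells and of 1.13, 1.11 and 1.13 over cells without Krt15.

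Ratios lay closer to 1 among cells without a thinned Krt15 UMI, the only Krt15 group in which they were taken. Among cells without Krt15, all 10 pairs were still above 1 in each library, with medians of 1.13 in the Lpar6 knockout, 1.11 in the Cab39l knockout and 1.13 in wild type. The lowest of these were 1.04, 1.04 and 1.02. Rgs5 and Scube2 in wild type stood at 1.02 there, against 1.28 over all cells, and Unc13c and Fut9 at 1.31, against 1.76. Rgs5 was in 83.2% of wild-type cells without Krt15 and in 56.4% of all wild-type cells. A higher share leaves less room above 1, so the lower ratios of its pairs are in part set by the shares. At a threshold of 2 UMIs the medians over all cells were 1.59, 1.95 and 1.62. The pair of Ttr and Scube2 in the Cab39l knockout (0.52) and that of Ttr and Unc13c in wild type (0.38) were below 1. These pairs were together in 153 and 53 cells at 1 UMI and in fewer at 2 UMIs. The number of cells at 2 UMIs was not kept, so these 2 values are not read as a reversal.

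The genes whose counts ran most like the summed members across cells included the 4 uroplakin genes that chose the cells, and those least like them included the basal keratin genes Krt15 and Krt5. Pearson correlations of log2 (thinned count + 1) were taken over 4670, 5171 and 2887 cells for 7740 genes and ranked by the least extreme of the 3 libraries. They are descriptions over cells that share a library, and low values in sparse counts are no finding. Unc13c was below the minimum of 5% of cells in the Cab39l knockout and was not itself among the genes ranked. The highest were Upk3a (0.39, 0.43 and 0.35 in the Lpar6 knockout, Cab39l knockout and wild type), Upk1b, Fam25c, Psca, Upk2, Mt1, Acer2 and Upk1a. Fam25c stood at 0.29, 0.31 and 0.49, Psca, which encodes a surface antigen tethered by a lipid anchor, at 0.29, 0.34 and 0.30, and Acer2, which encodes a ceramidase, at 0.20, 0.23 and 0.31. Krt15 was the lowest of all ranked genes, at -0.33, -0.49 and -0.57. It was followed by Tpt1, Aldh3a1, Wfdc2, Igfbp2, Lmo1, Cbr2 and Krt5, of which Igfbp2, an insulin-like growth factor binding protein, stood at -0.25, -0.35 and -0.50. For Rgs5 alone, 7 of the 8 highest genes were the same, with B2m in place of Upk1a, and the lowest was again Krt15 (-0.29, -0.47 and -0.54). Rgs5 is itself part of the summed members, so this overlap is in part built in. The highest for the others were Upk3a, Rgs5 and Upk1a for Ttr, Upk3a, Upk1b and Rgs5 for Unc13c, Upk3a, Upk1b and Upk1a for Scube2, and Psca, Upk1b and Upk3a for Fut9.

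Markers of the tissues in which the members are better known were summed in the same cells. Over all urothelial cells, the 12 pericyte and smooth muscle markers summed to 18.9 CPM in the Lpar6 knockout, 20.7 CPM in the Cab39l knockout and 26.2 CPM in wild type. Of that, Notch3 made up 18.3, 20.02 and 25.5 CPM, and Higd1b was at 0 in every library. Cells with Rgs5 had 19.1, 20.4 and 25.1 CPM of the list and cells without it 18.7, 21.1 and 28.0 CPM. The 10 hepatocyte and choroid plexus markers summed to 2.08, 3.47 and 2.87 CPM, with Alb and Otx2 at 0 in every library. The 9 neuroendocrine and neural markers summed to 5.18, 4.13 and 5.95 CPM, with Chga at 0 in every library. Lists of other cell types differed with some members. In the Cab39l knockout, the 6 gland-like markers summed to 887 CPM in cells with Fut9 and 142 CPM in cells without it, against 3.10 and 2.84 CPM in the Lpar6 knockout and 9.84 and 12.1 CPM in wild type. Myeloid markers summed to 7.39 CPM in Lpar6 knockout cells with Rgs5 and 1.35 CPM in those without it, and to 2.68 and 20.5 CPM in the Cab39l knockout. Fibroblast markers summed to 6.75 CPM in wild-type cells with Rgs5 and 0.599 CPM in those without it, and the 2 neutrophil markers to 53.8 and 20.97 CPM. The part of such transcripts in the members' shares was not tested. Without the 3, 24 and 11 cells in which lymphoid, myeloid, fibroblast or gland-like markers reached 0.2% of UMIs, Fut9 was found in 21.2%, 21.6% and 29.9% of cells.

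Barcodes with lymphoid markers, taken as a set that should lack the members, still held some of their transcripts. Lymphoid barcodes, with at least 1500 and under 10000 UMIs, and urothelial cells were thinned to 1500 UMIs. No upper limit was set on uroplakin UMIs in lymphoid barcodes, so barcodes that hold both kinds of cell were not left out. Rgs5 was then in 14.8% of urothelial cells and 6.90% of 58 lymphoid barcodes in the Lpar6 knockout. In the Cab39l knockout it was in 14.0% of urothelial cells and 4.13% of 242 lymphoid barcodes, and in wild type in 21.3% and 3.74% of 562. Unthinned, it was in 13.8%, 7.85% and 8.36% of lymphoid barcodes, whose median depths were 2433, 2913.5 and 3137.5 UMIs. For comparison, the uroplakin gene Upk3a stood at 6188, 5490 and 4796 CPM in urothelial cells, against 1111, 852 and 528 CPM in lymphoid barcodes. Unthinned, Upk3a was in 98.3%, 93.8% and 86.1% of lymphoid barcodes. In the same library Ttr was in 0 of 26 myeloid, 0 of 40 fibroblast and 0 of 10 gland-like Lpar6 knockout barcodes, which allows up to 11.5%, 7.5% and 30%. Ttr in the Lpar6 knockout was in 3.98% of urothelial cells and 5.17% of the 58 lymphoid barcodes (1.08 to 14.4%), so at that depth its share was not above that of lymphoid barcodes. Its level was 34.6 CPM in urothelial cells and 21.4 CPM (5.82 to 54.7) in those lymphoid barcodes. In the Cab39l knockout Ttr was in 1.74% of urothelial cells and 0.413% of lymphoid barcodes, and in wild type in 2.63% and 0.534%. Unc13c was in 3.30%, 0.832% and 1.87% of urothelial cells in the Lpar6 knockout, Cab39l knockout and wild type. In lymphoid barcodes it was in 0 of 58, which allows a share of up to 5.17% (3 counts), in 0 of 242, which allows up to 1.24%, and in 0.178% of 562, and its urothelial shares in both knockouts lay under those limits. Scube2 was in 5.31%, 4.08% and 5.16% of urothelial cells, against 0 of 58, 1.24% and 1.42% of lymphoid barcodes. Fut9 was in 3.34%, 3.48% and 5.65% of urothelial cells, against 0 of 58, 1.65% and 0.712%. With the same limit of 5.17% in the Lpar6 knockout, the share of Fut9 in urothelial cells lay under it and that of Scube2 close to it. The level of Fut9 in that library was 26.9 CPM in urothelial cells, against 0 UMIs and up to 19.7 CPM in lymphoid barcodes. For Scube2 it was 38.9 CPM, against 10.7 CPM (1.29 to 38.6).

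Lists of relatives and partners of the members were set beside all genes, of which 2.65% (Lpar6 knockout against wild type), 3.06% (Cab39l knockout against wild type) and 0.701% (Lpar6 against Cab39l knockout) were 2-fold apart, so low counts in short lists are not read as a result. Of 20 genes for regulators of G-protein signalling, 11 had at least 20 UMIs over a knockout and wild type together, the minimum for each list. By UMIs, which are not scaled to length, Rgs5 stood first in wild type, followed by Rgs12 (35.5, 36.8 and 55.1 CPM) and Rgs11 (11.9, 12.2 and 19.3 CPM). Rgs7 alone was lower by 2-fold, with a log2 ratio of -1.003 between the Lpar6 knockout and wild type. The list's median log2 ratio was -0.62 (Lpar6 knockout) and -0.54 (Cab39l knockout), and that of all genes -0.30 and -0.28. Of 26 genes for retinoid and thyroid hormone handling, 14 were measured. Ttr was the 1 member past 2-fold in any pair of libraries, higher in the Lpar6 knockout than in the Cab39l knockout. Rbp4, which encodes the retinol carrier that binds transthyretin in blood, stood at 1.33, 1.49 and 2.87 CPM, and Rxra, a nuclear receptor partner, at 50.8, 50.9 and 77.2 CPM.

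Of 36 genes for Munc13 proteins and vesicle release, 31 were measured. Unc13c and Sytl2 were lower by 2-fold in the Cab39l knockout than in wild type, with Sytl2, a Rab27 effector, at 116 and 239 CPM and a log2 ratio of -1.03. The other Unc13 genes were scarce, with Unc13d, Unc13b and Unc13a at or below 1.02 CPM in every library. Baiap3, in the same list, stood at 6.12, 5.57 and 6.33 CPM in the Lpar6 knockout, Cab39l knockout and wild type. In the Cab39l knockout that was close to the 5.92 CPM of Unc13c. The small GTPase gene Rab27b stood at 285, 282 and 372 CPM in the Lpar6 knockout, Cab39l knockout and wild type and the vesicle SNARE gene Vamp8 at 394, 379 and 327 CPM. The list's median log2 ratio to wild type was -0.19 and -0.18. Of 20 Hedgehog genes, 10 were measured and none was 2-fold apart. The ligand gene Shh stood at 85.6, 96.0 and 111 CPM, the receptor gene Ptch1 at 6.08, 5.66 and 10.0 CPM, and Scube1 and Scube3 at or below 0.0131 CPM. Of 20 fucosylation genes, 18 were measured and none was 2-fold apart. Among them Fut4, which encodes another Lewis x enzyme, stood at 5.82, 5.69 and 11.5 CPM, and Fuca1, which encodes a lysosomal fucosidase, at 111, 111 and 110 CPM. The medians were -0.40 and -0.44 for the Hedgehog list and -0.44 and -0.32 for the fucosylation list.

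Near the thresholds that defined the cells, Rgs5 was found on both sides. With cells thinned to 8000 UMIs, it was in 31.9% of Lpar6 knockout, 38.6% of Cab39l knockout and 33.6% of wild-type cells with 10000 to 12000 UMIs, and in 40.3%, 30.7% and 38.1% of barcodes with 8000 to 10000. Cells with 18 to 20% mitochondrial UMIs had Rgs5 in 71.4%, 54.9% and 70.3%, and those with 20 to 22% in 77.3%, 56.9% and 74.8%. Cells with 0.2 to 0.3% uroplakin UMIs, 19, 36 and 83 in number, had it in 10.5%, 8.33% and 14.5%, and the 4, 7 and 25 barcodes with 0.1 to 0.2% in 0 of 4, which allows up to 75%, in 14.3% and in 28.0%.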

How the data were processed

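Droplet 3' single-cell RNA libraries from pooled bladder cells were used as raw UMI counts per gene and barcode, as deposited by the authors. Cell Ranger 3.0.2 and mm10 are named in the submitters' processing notes, with no annotation release named. Members and gene lists were chosen with earlier results of these data known. Cells were thinned without replacement (numpy 2.4.6). Folds used UMIs summed per library, scaled to CPM, with a pseudocount of 1 CPM, and 2-fold as the threshold. Named genes were the members, Krt15, the most and least alike genes by correlation (at least 5% of cells in every library), and the most abundant of each list. Rgs7, Rbp4, Fut4, Scube1, Scube3, Baiap3 and the other Unc13 genes were added after their values were seen. With 1 library per group no test was run. Doublets were kept, since Scrublet (scanpy 1.11.5) marked 0, 0 and 22 cells by its own threshold in the Lpar6 knockout, Cab39l knockout and wild type. Leaving out the top-scoring 6% was an alternative. Lengths and positions came from GENCODE vM21 (99.6% of genes matched), and TMM factors from edgeR 4.0.16. Steps were tested on simulated data. Alternatives covered the filters, thinning, detection, scaling, weighting and pseudocount.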

Additional observations from a re-analysis of the deposited data

How the results depend on the processing

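With 1 pooled library per group, no replicate could be left out and no value has a replicate error. No paired analysis was possible because each group has 1 library. Values are given for the Lpar6 knockout, Cab39l knockout and wild type in that order. The share with Rgs5 was 57.1%, 56.2% and 63.05% in cells of at least 20000 UMIs, 74.6%, 69.8% and 70.45% without thinning, and 55.7%, 53.7% and 62.5% with uroplakins at 0.5% or more. In cells with at most 10% mitochondrial UMIs it was 48.9% in the Cab39l knockout and 46.2% in wild type. The log2 ratio of Krt15 in cells with over cells without Rgs5 was -2.65, -1.76 and -2.26 when detection needed 2 UMIs, -2.37, -1.58 and -1.81 without thinning, -1.71, -1.31 and -1.675 with uroplakins at 0.5% or more, and -2.07, -1.51 and -1.86 without the top 6% by doublet score. It was -1.58 in wild-type cells with at most 10% mitochondrial UMIs. The median co-detection ratio was 1.587, 1.95 and 1.62 at 2 UMIs. Over cells with no Krt15 UMI it was 1.11 in the Cab39l knockout and 1.126 in wild type. At 2 UMIs the ratio of Ttr and Scube2 was 0.517 in the Cab39l knockout, and that of Ttr and Unc13c was 0.3765 in wild type. Both rest on fewer cells than at 1 UMI and are not read as a reversal. Between the Cab39l knockout and wild type, 0 members were 2-fold apart with TMM scaling and 0 at 10% mitochondrial UMIs or less. Between the Lpar6 knockout and wild type, 1 was with TMM scaling (Ttr), 1 at 10% mitochondrial UMIs or less (Unc13c), and 2 over cells with no Krt15 UMI (Rgs5 and Fut9, both lower). Between the knockouts, 1 was over cells with no Krt15 UMI (Unc13c). The cause was not tested. Settings on Krt15 for the ratios between libraries, on basal markers and on cells with markers of other types were chosen after seeing the data. Of 594 values under alternatives, 388 were labelled as the same, 204 as moved, and 2 co-detection ratios fell below 1. The measure was the counting interval. Counts of members and percentages of genes 2-fold apart have no such interval and were judged by a factor of 1.5. Of the 165 log2 ratios among the 594 values, 8 had the other sign, none of them of a member 2-fold apart over all cells. These were 4 of Scube2 (Lpar6 knockout over wild type, 0.01 over all cells and down to -0.35), 2 of Rgs5 and 1 of Fut9 (Lpar6 over Cab39l knockout, all near 0), and 1 of Unc13c (Lpar6 knockout over wild type, 0.56 over all cells and -0.14 without Krt15).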
